A study of Mus musculus with 12 samples.

Results

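The laminin chains, the nidogens and perlecan make up the non-collagen scaffold of the basement membrane, and 10 of their genes were followed here through all 12 libraries. They were chosen by name, as Lama2, Lama3, Lama4, Lama5, Lamb1, Lamb2, Lamc1, Nid1, Nid2 and Hspg2, and each symbol stood on 1 of the 40760 genes of the deposited table. All 10 were among the 17418 genes that passed edgeR's filter on low counts. The libraries were bulk RNA-seq of Pdgfra+ (CD140a+) cells, a fibroblast-rich mesenchymal population, sorted by flow cytometry from the lungs of male mice. There were 4 groups of 3 libraries. WT vehicle and WT bleo came from wild-type mice given vehicle or bleomycin, a DNA-damaging drug that scars the lung, and the other 2 groups carried the label Pear1-/- with vehicle or with bleo. By the study's methods the mice were young adults on a C57BL/6 background, bleo was given as an aerosol through the trachea, and the Pear1 allele was of the knockout-first kind, in which a trapping cassette sits in an intron. PEAR1 is a receptor of platelets, endothelial cells and fibroblasts. The dose and the day of harvest behind these libraries, and the number of mice in each, are not given in the sources used here, so p-values measure the spread between these libraries, which may be partly technical.

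A laminin is a cross-shaped trimer of 1 α, 1 β and 1 γ chain that polymerizes into a sheet on the cell surface, anchored there by integrins and dystroglycan. Nidogens bridge the laminin sheet to the type IV collagen network, and perlecan, a heparan sulfate proteoglycan, binds both and holds growth factors. In the lung this sheet lies under the alveolar epithelium and around capillaries, and mesenchymal cells supply several of its chains.

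The counts of Pear1 itself did not separate the vehicle groups by label. They were 547 ± 28.8 normalized counts (the authors' scaling of each library by a single factor, mean ± SD, n = 3) for WT vehicle against 519.7 ± 24.0 in vehicle libraries with the label Pear1-/-, a log2 fold change of -0.08 (SE 0.073, adjusted p = 0.470) in edgeR's quasi-likelihood test, which is the source of every log2 fold change given here. After bleo they were 254 ± 14.0 in WT and 357 ± 14.2 in libraries labelled Pear1-/-, higher in the latter by 0.48 (SE 0.077, adjusted p = 1.20e-04). Which exons these counts cover relative to the cassette is not given in the sources used here, so they do not settle the genotype, and the groups are named by their labels throughout. Libraries held between 6702948 and 10447101 counts. WT vehicle replicates 1 and 3 had counts on 35472 and 35884 genes, replicate 2 on 29845, the vehicle libraries labelled Pear1-/- on 27702 to 29425, and the bleo libraries on 21621 to 22422. Set against counting noise, WT vehicle replicates 1 and 3 were close to each other (chi-square over its degrees of freedom 1.71), while replicate 2 stood apart from replicate 1 (24.5) and from replicate 3 (25.6), so the results it changed most are also given without replicate 2. Pear1-/- vehicle replicate 3 also differed from replicates 1 (4.62) and 2 (5.18) of its group by more than those did from each other (1.48). No library was a copy of another.

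The sort did not leave mesenchymal transcripts alone. Summed over 10 leukocyte markers, normalized counts ranged from 51691 to 61356 in WT vehicle, from 59710.4 to 66711 in Pear1-/- vehicle, and, after bleo, from 262462 to 271209 in WT and from 115910.4 to 118833 in Pear1-/-. Over 10 mesenchymal markers, Pdgfra among them, the ranges were 83204 to 97818, 97799 to 99594, 24284 to 24415 and 32316 to 33036 in the same order of groups. Ptprc, which encodes the leukocyte antigen CD45, was 3303 ± 479, 3818 ± 263, 7616 ± 97.8 and 3365 ± 109 normalized counts, and Pdgfra was 4565 ± 325, 4165 ± 39.1, 1360.1 ± 29.9 and 2392 ± 18.8. Among epithelial genes, Sftpc, a surfactant protein of alveolar type II cells, had 15048 ± 1862, 17592 ± 1602, 6394 ± 82.7 and 1610.2 ± 44.4, while Epcam stayed between 129 and 231 in all 12 libraries. Over the whole epithelial list of 8 genes the group means were 44898, 56572, 14829.9 and 6627 normalized counts, over the 8 endothelial genes (Pecam1 and Cdh5 among them) 3791, 4307, 2055 and 2286, over the 8 mural genes (Rgs5 among them) 2497, 2597, 1614 and 4245, and over the 5 mesothelial genes (Msln among them) 417, 377, 158 and 206. None of the genes named here was at 0 in any library, and of all the markers only Calb2, of the mesothelial list, was at 0 in some. With bleo in WT mice, 8 of the 10 leukocyte markers were higher and 1 lower, and 10 of the 10 mesenchymal markers were lower. Of all genes, 31.4% were higher and 36.6% lower. With bleo in Pear1-/-, 7 leukocyte markers were higher and 2 lower, and 1 mesenchymal marker was higher and 8 lower (28.9% and 33.4% of all genes). Ptprc was not called there (-0.18). Most of the leukocyte sum in each group was Cd74 and Lyz2, named after their values were seen (142328 ± 4768 and 74718 ± 898 normalized counts in WT bleo). In Pear1-/- bleo against WT bleo, 9 leukocyte markers were lower and 0 higher, and 4 mesenchymal markers were higher and 2 lower, with a median log2 fold change of 0.13. Of all genes, 22.1% were higher and 23.9% lower there. Most of the rise of the mesenchymal sum there was Mfap4, a microfibril-associated protein gene named after its values were seen (7229.7 ± 55.3 and 12990.4 ± 239 normalized counts). Of the 8 mural markers 2 were higher and 2 lower there, near the 22.1% and 23.9% of all genes. Most of the rise of their sum was Des, which encodes the muscle filament desmin and was named after its values were seen (921 ± 16.7 and 3335 ± 76.7 normalized counts), while Rgs5 had 34.5 ± 7.30 and 34.5 ± 5.25. Every bleo contrast below therefore ran alongside these shifts, and their part in it was not tested. In bulk libraries fewer cells of a type and less RNA per cell cannot be told apart.

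Bleo lowered 9 of the 10 genes in WT mice and 7 of the 10 in the mice labelled Pear1-/-, and after bleo 7 of the 10 stood higher in the mice labelled Pear1-/- than in WT. From WT vehicle to WT bleo, 9 genes were lower and 1 (Lama5) higher at an adjusted p under 0.05, where 36.6% of all genes tested were lower and 31.4% higher, and 6 were lower by more than 2-fold against 23.5% of all genes. The libraries of the 2 groups did not overlap for any of the 10, against 36.7% of all genes without overlap in the lower and 32% in the higher direction. The median log2 fold change of the 10 was -1.28, and -0.07 over all genes tested. Set against Pdgfra in the same library instead, 7 of these 9 genes lay higher in WT bleo than in WT vehicle without overlap, as did 77.1% of all genes tested (8.41% lower) and 44.2% of the genes called lower (23% lower). In Pear1-/- bleo against Pear1-/- vehicle 7 were lower and 3 (Lama5, Nid2 and Hspg2) higher, against 33.4% and 28.9% of all genes, with 4 lower and 2 higher by more than 2-fold (19.4% and 8.38% of all genes), and the groups again did not overlap for any (37.8% of all genes lower and 33.2% higher without overlap). The medians were -0.61 for the 10 and -0.05 for all genes. Against Pdgfra, 3 of these 7 lay higher with bleo and 3 lower without overlap, against 66.4% and 16.6% of all genes tested and 23.1% and 49.3% of those called lower there.

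Between Pear1-/- bleo and WT bleo, 7 genes were higher (22.1% of all genes) and 0 lower (23.9% of all genes), with a median of 0.63 against -0.01. None was lower at an unadjusted p under 0.05 in edgeR, nor by DESeq2 or limma. Nid2 alone was past 2-fold (6.26% of all genes were higher and 8.76% lower by that much). For 8 genes every Pear1-/- bleo library lay above every WT bleo library, as in 31.3% of all genes, and for 0 genes below (31.6% of all genes). Against Pdgfra, Nid1, Nid2 and Lamb1 lay higher without overlap in Pear1-/- bleo (5.61% of all genes), and Lama5 and Hspg2 overlapped. On that scale Lama2, Lama3, Lama4, Lamb2 and Lamc1 lay lower without overlap (74.7% of all genes). Between the vehicle groups 1 gene, Lama3, was lower (3.65% of all genes) and 0 were higher (0.855%), with 2 higher at an unadjusted p under 0.05 (Lamb2 and Nid2) and 0 by DESeq2 or limma. Lama3 was past 2-fold as well (2.33% of all genes lower and 0.0344% higher by that much). There 1 gene without overlap, Lama3, was lower and 1, Nid1, higher, against 10.9% and 8.28% of all genes, and the medians were -0.05 and 0.00. Without WT vehicle replicate 2, 5 genes were called between the vehicle groups, Lamb2 (0.27), Nid1 (0.13) and Nid2 (0.57) higher and Lama3 (-1.92) and Lamc1 (-0.35) lower in Pear1-/- vehicle, where 22.7% of all genes were then higher and 23.4% lower. With that replicate as the sole WT vehicle library, whose spread is then taken from the other groups, none of the 10 passed the threshold, which says little of a difference. Each pair of these comparisons that names the same group shares its libraries and is not independent.

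**Figure D1:**
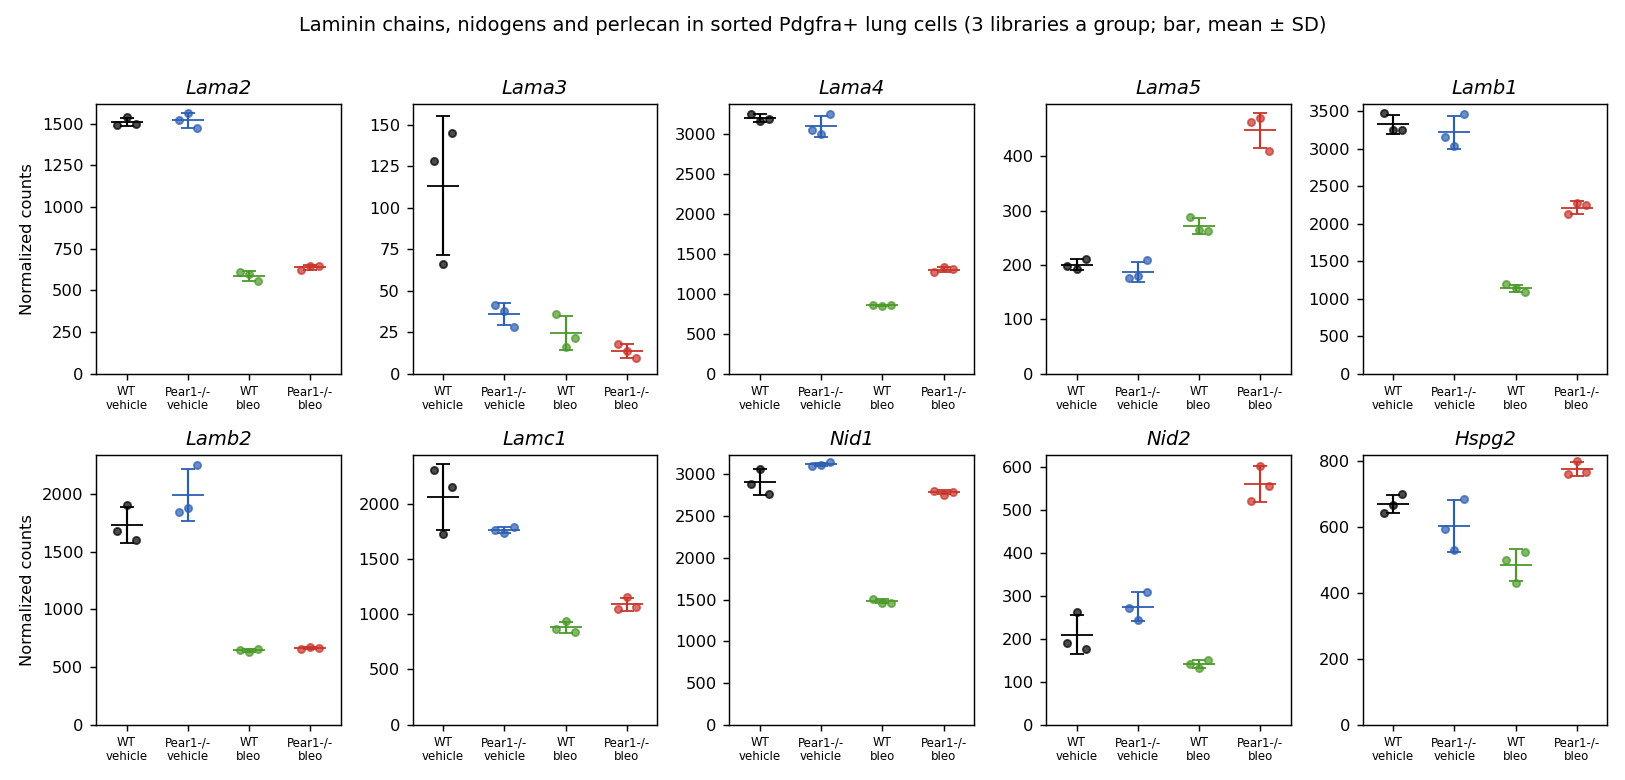
Normalized counts of the 10 genes (vertical axes, linear and starting at 0) in each library, by group (horizontal axes); points are the 3 libraries of a group and bars their mean ± SD. Both vehicle groups sit together for most genes, 9 of the 10 fell in WT bleo, and Lama4, Lama5, Lamb1, Lamc1, Nid1, Nid2 and Hspg2 stand above WT bleo in Pear1-/- bleo.

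**Figure D2:**
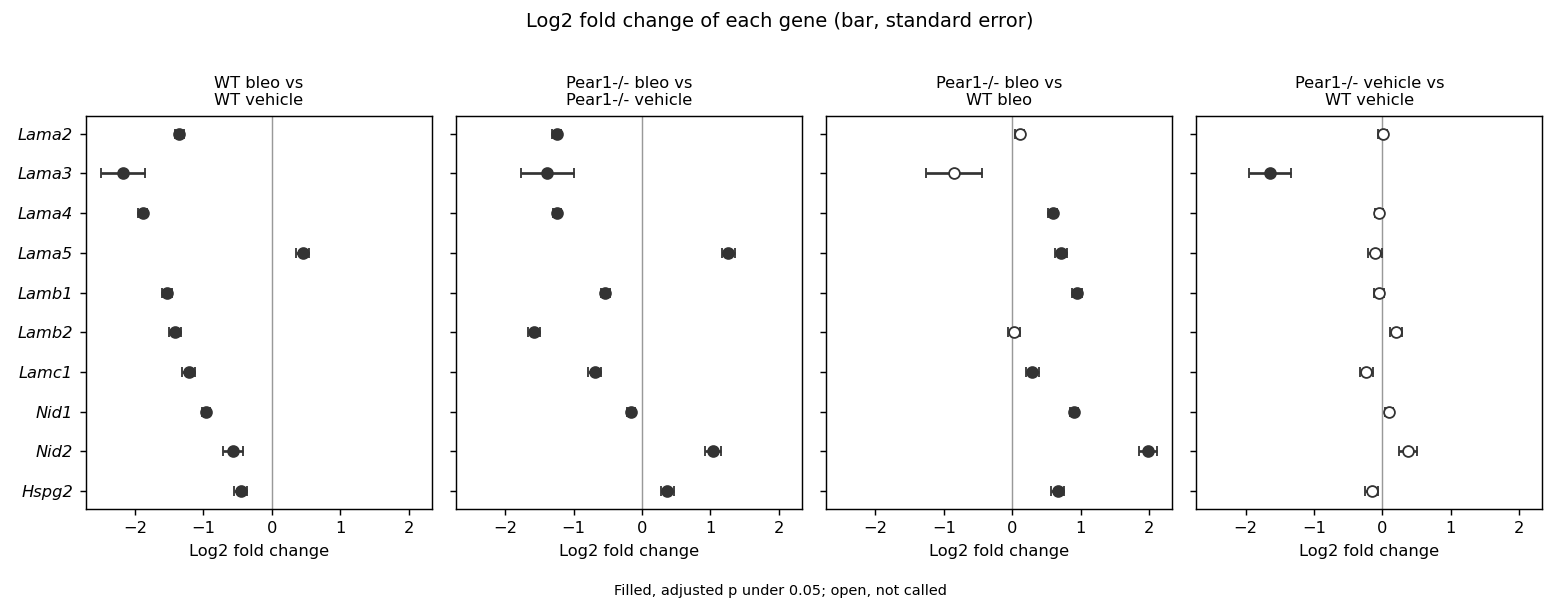
Log2 fold change (horizontal axes) of each gene in the comparisons of group means, with bars for the standard error; filled points passed an adjusted p under 0.05 and open points did not. After bleo, 7 filled points lie to the right of 0 in the panel of Pear1-/- against WT, and Lama3 is the single filled point between the vehicle groups.

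Of the α chains, Lama4 had the most transcript per length. It encodes α4, the chain of laminins 411 and 421 in the membranes of vessels and mesenchymal cells. Its normalized counts were 3249, 3162 and 3189 in WT vehicle and 3044, 3005 and 3250.0 in Pear1-/- vehicle. After bleo they were 858, 852 and 865 in WT and 1266, 1332 and 1311 in the libraries labelled Pear1-/-. The vehicle groups interleaved, both bleo groups lay below them, and all 3 Pear1-/- bleo libraries lay above the 3 WT bleo libraries. In WT, Lama4 fell by 1.89 on the log2 scale (SE 0.065, adjusted p = 1.99e-12). In Pear1-/- it fell by 1.25 (SE 0.063, adjusted p = 2.63e-10), and it was higher in Pear1-/- bleo than in WT bleo by 0.59 (SE 0.063, adjusted p = 2.21e-06).

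Lama2 encodes α2, or merosin, the chain that joins the membrane of muscle and peripheral nerve to dystroglycan. It had 1494, 1540.3 and 1496 normalized counts with vehicle and 609, 599.6 and 553 with bleo in WT, and 1519.8, 1564 and 1474 with vehicle and 622, 644 and 648 with bleo in Pear1-/-. With bleo Lama2 fell in both genotypes, by log2 changes of -1.35 (SE 0.065, adjusted p = 9.82e-11) in WT and -1.25 (SE 0.065, adjusted p = 3.49e-10) in Pear1-/-. Every Pear1-/- bleo library was above every WT bleo library, yet the difference of 0.11 on the log2 scale was not called (SE 0.065, adjusted p = 0.200). The ratio of Lama2 to Lama4 counts in a library, which does not depend on scaling, was 0.472 ± 0.0139 with vehicle and 0.684 ± 0.0392 with bleo in WT, and 0.491 ± 0.0342 with vehicle and 0.490 ± 0.00578 with bleo in Pear1-/- (mean ± SD, n = 3). WT bleo stood apart from the other 3 groups in this ratio, since Lama4 fell further than Lama2 there. The exact two-sided permutation test, which cannot go below p = 0.1 for 3 libraries against 3, gave p = 0.1 for WT bleo against WT vehicle and for Pear1-/- bleo against WT bleo, and p = 1 for Pear1-/- bleo against Pear1-/- vehicle (adjusted over 12 ratio comparisons, 0.15, 0.15 and 1).

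Lama5 went the other way. It encodes α5, the chain of laminins 511 and 521, which dominate the mature alveolar and vascular membrane and are made by epithelium and endothelium as well as by mesenchyme. Counts were 198, 193 and 212 in WT vehicle and 175, 179 and 208 in Pear1-/- vehicle, against 288, 264 and 263 in WT bleo and 463, 470.2 and 411 in Pear1-/- bleo, all normalized. The bleo groups lay above both vehicle groups and did not overlap each other. The rise was 0.45 (SE 0.094, adjusted p = 6.01e-04) on the log2 scale in WT and 1.26 (SE 0.090, adjusted p = 1.38e-08) in Pear1-/-, and Pear1-/- bleo exceeded WT bleo by 0.71 (SE 0.087, adjusted p = 8.94e-06). The summed epithelial and endothelial markers were lower with bleo in both genotypes, as given above. Of the 8 endothelial markers, 0 were higher and 7 lower with bleo in each genotype. Of all genes, 31.4% were higher and 36.6% lower in WT, and 28.9% and 33.4% in Pear1-/-. Most of the epithelial sum was Sftpc and Scgb1a1, and single epithelial markers differed in direction. Of the 8 epithelial markers, 2 were higher and 6 lower with bleo in WT, and 1 was higher and 6 lower in Pear1-/-. Those higher, named after their values were seen, were Cdh1, which encodes E-cadherin, in both genotypes (155 ± 24.3 to 288 ± 37.2 normalized counts in WT and 161 ± 14.974 to 383 ± 18.9 in Pear1-/-) and Epcam in WT (149.6 ± 25.0 to 192 ± 8.15). Between Pear1-/- bleo and WT bleo 2 of the 8 epithelial markers were higher, Cdh1 (0.40) among them, and 5 lower (22.1% and 23.9% of all genes), with a median of -0.50. The part of epithelial and endothelial cells in the counts of Lama5 was not tested.

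Lama3 encodes α3, the chain of laminin 332 of epithelial anchorage, and was the scarcest of the 10, with 10 to 127 counts in a library and 531 counts in all. It had 129, 66.0 and 145 normalized counts with vehicle and 35.8, 16.3 and 21.3 with bleo in WT, and 41.7, 38.0 and 28.4 with vehicle and 17.8, 13.8 and 9.53 with bleo in Pear1-/-. WT vehicle replicates 1 and 3, the libraries with counts on the most genes, were the highest, and replicate 2 was less than 2-fold above the nearest Pear1-/- vehicle library. Log2 fold changes with bleo were -2.17 (SE 0.32, adjusted p = 2.62e-05) in WT and -1.38 (SE 0.39, adjusted p = 0.00588) in Pear1-/-, and the difference of -0.85 (SE 0.41, adjusted p = 0.102) between the bleo groups, whose libraries overlapped, was not called. With WT vehicle replicate 2 as the sole WT vehicle library the fall in WT was -1.39 and without it -2.45. The lower level in Pear1-/- vehicle, -1.64 (SE 0.30, adjusted p = 0.0368), was not called when any 1 of the other 5 vehicle libraries was left out (adjusted p between 0.0932 and 0.191), and was -0.86 with replicate 2 as the sole WT vehicle library.

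The β chains parted after bleo. Lamb1 encodes β1, the β chain of the widespread and developmental laminins, and Lamb2 encodes β2, which replaces it at the neuromuscular junction, in the glomerulus and in vessel walls. Lamb1 had 3468, 3253 and 3247 normalized counts with vehicle and 1188, 1135 and 1089 with bleo in WT, and 3151, 3037 and 3458 with vehicle and 2120.4, 2278 and 2241 with bleo in Pear1-/-. Lamb2 had 1679.6, 1906 and 1606 with vehicle and 645, 633 and 656 with bleo in WT, and 1848, 1877 and 2256 with vehicle and 654, 676 and 662 with bleo in Pear1-/-. Both genes were lower in every bleo library than in any vehicle library, but the bleo groups were far apart for Lamb1 and overlapped for Lamb2. In WT the log2 changes were close, -1.54 (SE 0.072, adjusted p = 7.15e-11) for Lamb1 and -1.41 (SE 0.088, adjusted p = 1.69e-09) for Lamb2. In Pear1-/- they were -0.53 (SE 0.070, adjusted p = 1.02e-05) and -1.58 (SE 0.088, adjusted p = 7.44e-10). Pear1-/- bleo exceeded WT bleo by 0.95 (SE 0.071, adjusted p = 5.03e-08) for Lamb1, whereas Lamb2 differed by 0.03 (SE 0.088, adjusted p = 0.818).

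Within single libraries the Lamb1 to Lamb2 count ratio was 2.06, 1.71 and 2.02 with vehicle and 1.84, 1.79 and 1.66 with bleo in WT, and 1.70, 1.62 and 1.53 with vehicle and 3.24, 3.37 and 3.39 with bleo in Pear1-/-. All 3 Pear1-/- bleo libraries were above the other 9. The mean log2 ratio was 0.92 higher in Pear1-/- bleo than in WT bleo and 1.04 higher than in Pear1-/- vehicle, each with p = 0.1 in the exact permutation test, the smallest value it allows (adjusted p = 0.15). Between WT bleo and WT vehicle the ranges overlapped (difference -0.13, exact p = 0.3). Pear1-/- vehicle differed from WT vehicle by -0.25 (exact p = 0.1, adjusted p = 0.15), and WT vehicle replicate 2, at 1.71, came nearest to the Pear1-/- libraries.

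The sequences just upstream of these 2 genes are shown for their difference in base content, from the RefSeq promoter set (GRCm38), which held 6 of the 10 genes (Hspg2, Lama2, Lama5, Lamb1, Lamb2 and Nid1). Each runs 5′ to 3′ on the gene's plus strand from 250 bases before the RefSeq start to the last base before any annotated exon of the gene. Lamb1 is chr12:31265043-31265233 and Lamb2 is chr9:108479612-108479735. Capitals mark GC boxes (GGGCGG, read on both strands, the motif of Sp factors) and CCAAT boxes (CCAAT, read on both strands).
Lamb1: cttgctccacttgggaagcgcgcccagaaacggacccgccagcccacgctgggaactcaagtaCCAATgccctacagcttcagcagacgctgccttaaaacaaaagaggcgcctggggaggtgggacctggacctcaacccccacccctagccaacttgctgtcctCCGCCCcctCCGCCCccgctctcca
Lamb2: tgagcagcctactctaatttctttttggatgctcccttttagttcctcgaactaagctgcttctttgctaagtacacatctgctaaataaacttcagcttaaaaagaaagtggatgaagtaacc
The printed Lamb1 stretch of 191 bases was 63.9% G and C and held 2 GC boxes and 1 CCAAT box, while the 124 bases of Lamb2 were 37.9% G and C and held none. Over the full 250 bases before the RefSeq start, GC boxes numbered 5 in Hspg2, 4 in Lama5, 2 in Lamb1, 1 in Nid1 and 0 in Lama2 and Lamb2, and 32.7% of all 32851 such windows held at least 1. CCAAT was found in Lamb1 and Nid1, and in 33.8% of all windows, and a TATA box (TATAAA, both strands) in none of the 6, against 12.4% of all windows. These matches describe the letters of 6 windows and do not bear on binding.

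Lamc1 encodes γ1, the γ chain of most laminins, and its null mutation leaves embryos without basement membranes. Normalized counts were 2304, 1730.1 and 2157 with vehicle and 868, 938 and 840.3 with bleo in WT, and 1761, 1738 and 1787 with vehicle and 1049.6, 1154 and 1064 with bleo in Pear1-/-. In WT vehicle, replicate 2 lay with the Pear1-/- vehicle libraries and replicates 1 and 3 above them. The fall with bleo was -1.21 (SE 0.096, adjusted p = 2.82e-08) on the log2 scale in WT and -0.69 (SE 0.094, adjusted p = 1.53e-05) in Pear1-/-. Pear1-/- bleo was above WT bleo in every library, by 0.29 (SE 0.095, adjusted p = 0.0204), the smallest of the 7 called differences between the bleo groups. It was no longer called without WT bleo replicate 1, WT bleo replicate 3 or Pear1-/- bleo replicate 2, when adjusted p was 0.0658, 0.0796 and 0.0878.

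The nidogens, which clip the laminin γ1 arm to type IV collagen, included the gene with the widest gap between the bleo groups, Nid2. Nid1 had 2889, 3069 and 2766 normalized counts with vehicle and 1508, 1464 and 1463 with bleo in WT, and 3102, 3118 and 3144 with vehicle and 2803, 2758 and 2796 with bleo in Pear1-/-. WT bleo was at about the same level in all 3 libraries and far below the other groups, while Pear1-/- bleo lay just under Pear1-/- vehicle and overlapped WT vehicle. In WT, Nid1 fell by 0.96 on the log2 scale (SE 0.062, adjusted p = 2.52e-09). In Pear1-/- it fell by 0.16 (SE 0.061, adjusted p = 0.0323), and this was not called without any 1 of Pear1-/- vehicle replicates 1 and 2 or any 1 of the 3 Pear1-/- bleo libraries (adjusted p between 0.0601 and 0.0894). Pear1-/- bleo exceeded WT bleo by 0.90 (SE 0.062, adjusted p = 1.83e-08).

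Nid2, the less abundant homologue, had 190.4, 262 and 176 normalized counts with vehicle and 141, 132 and 149.8 with bleo in WT, and 271, 243 and 309.9 with vehicle and 520.3, 603 and 556 with bleo in Pear1-/-. Its lowest and its highest group were both bleo groups, with the vehicle groups between them. The log2 fold change was -0.57 (SE 0.14, adjusted p = 0.00221) in WT and 1.03 (SE 0.12, adjusted p = 3.28e-06) in Pear1-/-. Between the bleo groups it was 1.98 (SE 0.13, adjusted p = 1.26e-08), a 3.94-fold difference and the only one of the 10 past 2-fold. The change in WT was -0.37 without WT vehicle replicate 2 and -0.88 with it as the sole WT vehicle library. Of the exonic bases of Nid2, 437 (8.45%) lie on Rtraf, an RNA-binding protein gene of the opposite strand, and the counting is not stated to have used strand. Rtraf had 452 to 1224 counts in a library and rose with bleo in both genotypes (log2 fold changes 0.65 and 0.61). Between the bleo groups its value was 0.12 (adjusted p = 0.247), and its part in the counts of Nid2 was not tested.

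The Nid1 to Nid2 ratio of counts was 14.2 ± 2.15 with vehicle and 10.5 ± 0.704 with bleo in WT, and 11.5 ± 1.34 with vehicle and 4.996 ± 0.410 with bleo in Pear1-/- (mean ± SD, n = 3). It was below that of every other library in all 3 Pear1-/- bleo libraries, so Nid2 was a larger part of the nidogen transcript there. The log2 ratio differed from WT bleo by -1.08 and from Pear1-/- vehicle by -1.20 (exact permutation p = 0.1 each, adjusted p = 0.15). The promoter of Nid1, chosen to set beside the β chains because its counts tracked those of Lamb1, is chr13:13437352-13437550 on the plus strand (GRCm38, RefSeq), with its GC box and its CCAAT box, here as ATTGG on the reverse strand, in capitals.
Nid1: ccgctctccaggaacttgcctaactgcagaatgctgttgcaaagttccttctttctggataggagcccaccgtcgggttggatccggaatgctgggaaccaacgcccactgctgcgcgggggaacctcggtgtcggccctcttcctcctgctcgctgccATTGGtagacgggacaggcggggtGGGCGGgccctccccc
This stretch of 199 bases was 63.8% G and C. Its choice rested on these same counts, and a link between these letters and the counts was not tested.

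Hspg2 encodes perlecan, whose heparan sulfate chains bind fibroblast growth factors and whose core binds laminin and nidogen. It had 642, 667 and 698 normalized counts with vehicle and 498, 430.4 and 522 with bleo in WT, and 592, 529.7 and 685 with vehicle and 760.1, 798 and 767 with bleo in Pear1-/-. WT bleo was the lowest group, just below the lowest Pear1-/- vehicle library, and Pear1-/- bleo the highest, above all other libraries. The log2 change with bleo was -0.46 (SE 0.096, adjusted p = 6.13e-04) in WT and 0.37 (SE 0.094, adjusted p = 0.00303) in Pear1-/-, opposite in sign, and the bleo groups differed by 0.67 (SE 0.095, adjusted p = 3.57e-05).

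Whether the response to bleo depended on the label was tested as the difference of the 2 bleo effects. It was called for 7 genes, all towards a higher value in Pear1-/- (17.9% of all genes) and for 0 in the other direction (19.1% of all genes), and Nid2 passed 2-fold (8.61% of all genes higher and 7.06% lower by that much), while Lamb1 was at that threshold and fell on either side of it under the alternatives (0.92 to 1.09), with 0 lower also at an unadjusted p under 0.05 and by DESeq2 and limma. On the log2 scale the difference was 1.60 (SE 0.19, adjusted p = 1.06e-05) for Nid2, 1.0 (SE 0.10, adjusted p = 2.54e-06) for Lamb1, 0.83 (SE 0.13, adjusted p = 2.24e-04) for Hspg2 and 0.81 (SE 0.13, adjusted p = 2.10e-04) for Lama5. Nid1 followed with 0.80 (SE 0.087, adjusted p = 5.20e-06), Lama4 with 0.64 (SE 0.089, adjusted p = 5.50e-05) and Lamc1 with 0.52 (SE 0.13, adjusted p = 0.00641). Pdgfra, the gene of the sort, had a difference of 0.94 (SE 0.093, adjusted p = 2.44e-06). This was below those of Nid2 and Lamb1 and above those of Hspg2, Lama5, Nid1, Lama4 and Lamc1. The bleo effects of Lama2, Lama3 and Lamb2 were not shown to differ, at 0.10 (SE 0.091, adjusted p = 0.399), 0.79 (SE 0.52, adjusted p = 0.257) and -0.17 (SE 0.12, adjusted p = 0.299). Without WT vehicle replicate 2, Lama3 (1.07) and Lamb2 (-0.24) were called as well, where 23.7% of all genes were higher and 26.5% lower. With that replicate as the sole WT vehicle library Lama3 (0.02) and Lamb2 (-0.02) were near 0, and Lamc1 was 0.28. Beside the 7 genes, the mesenchymal and mural marker sums, whose rise was mostly that of Mfap4 and of Des, were higher and the leukocyte sum lower in Pear1-/- bleo than in WT bleo, and what part the make-up of the sorted cells had in these genes was not tested.

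Levels were compared between genes as RPKM, counts scaled by library total and by the length of annotated exons (GENCODE, GRCm38). In WT vehicle Nid1 was highest at 49.5 ± 1.69 (mean ± SD, n = 3), above Lamb1 at 39.7 ± 3.86 in every library. Lamb2 (33.5 ± 0.662), Lama4 (31.4 ± 2.68) and Lamc1 (29.7 ± 6.25) came next with overlapping libraries and so had no order among themselves. Lama2 followed at 10.9 ± 0.647, clear of its neighbours, then Hspg2 at 5.54 ± 0.511 and Nid2 at 4.74 ± 0.648, which overlapped. Lama5 (2.09 ± 0.242) and Lama3 (1.27 ± 0.537) were the lowest, without overlap. In Pear1-/- vehicle Nid1 (48.1 ± 0.389) was again highest and Lamb1 (34.7 ± 1.88) and Lamb2 (35.0 ± 3.46) overlapped. Lama4 (27.5 ± 0.787) lay below both and above Lamc1 (22.8 ± 0.210) without overlap, and Nid2 at 5.67 ± 0.623 lay just above Hspg2 at 4.50 ± 0.528. In WT bleo Nid1 (23.9 ± 0.406) was again highest, Lamb1 (12.9 ± 0.547) and Lamc1 (11.982 ± 0.677) overlapped, as did Lamc1 and Lamb2 (11.9 ± 0.221), and Lama4 (7.99 ± 0.0679) was below them. In Pear1-/- bleo the levels were 44.8 ± 0.573 for Nid1 and 24.9 ± 0.802 for Lamb1, while Lamb2 (12.2 ± 0.170), Nid2 (12.1 ± 0.849) and Lama4 (12.1 ± 0.253) overlapped.

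Set against the other chains of the same class per length, the laminin make-up of the transcripts shifted with bleo. Lama4 made up 67.6% ± 1.06 of the α transcripts (mean ± SD, n = 3) with vehicle and 52.1% ± 1.50 with bleo in WT, and 69.3% ± 1.27 with vehicle and 57.0% ± 0.951 with bleo in Pear1-/-. The share of Lama5 was 4.49% ± 0.187 and 4.44% ± 0.321 in WT and Pear1-/- vehicle and reached 17.5% ± 0.439 and 20.7% ± 1.30 after bleo, and that of Lama2 lay between 20.6% and 26.3% throughout. Lamb1 was 52.1% ± 2.41 of the β transcripts with vehicle and 48.3% ± 1.30 with bleo in WT, and 48.1% ± 1.33 with vehicle and 65.8% ± 0.454 with bleo in Pear1-/-. Lamc1 was 51.6% ± 2.70 and 48.5% ± 1.40 of the summed Lamc1 and Lamc3 transcripts in WT and Pear1-/- vehicle, and after bleo 69.7% ± 2.59 in WT and 83.9% ± 2.01 in Pear1-/-. The share of Lamc1 was higher after bleo although its own counts were lower, since Lamc3 fell further.

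**Figure D3:**
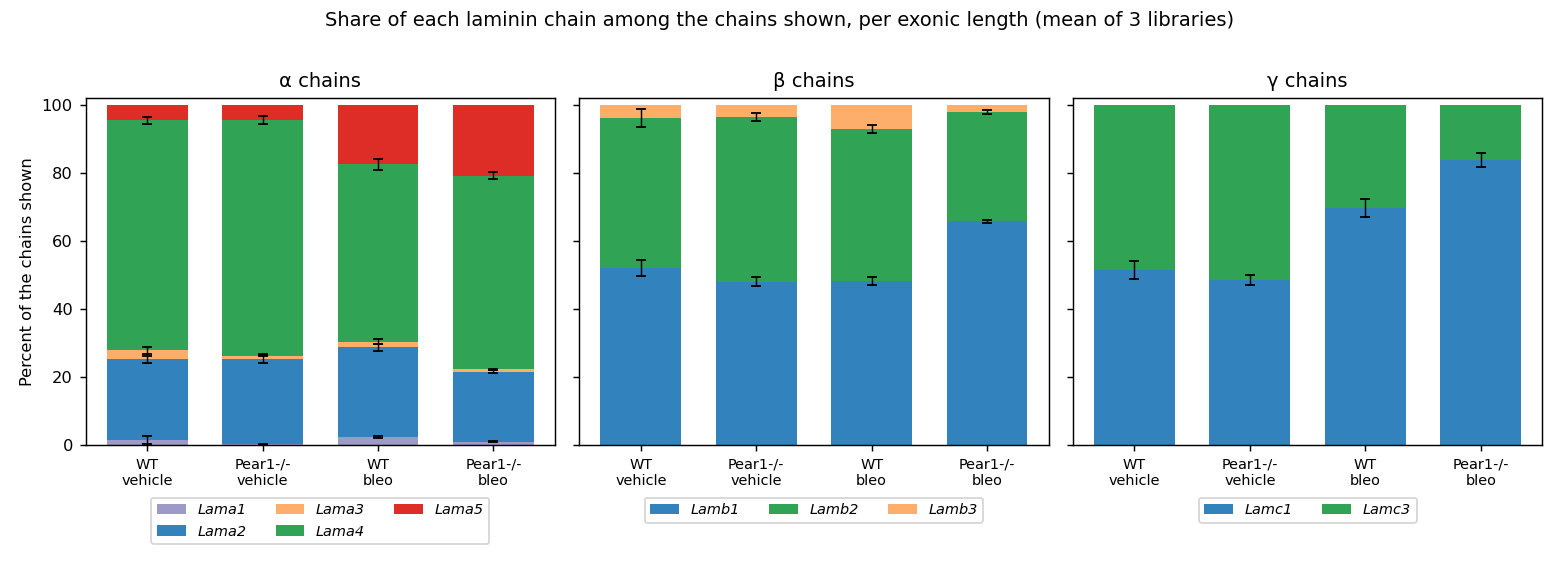
Share of each chain in the α and β transcripts and in the sum of Lamc1 and Lamc3 (γ), per exonic length (vertical axis, percent of the chains shown) in the 4 groups (horizontal axes); stacked bars are means of 3 libraries and the error bar at the top of a segment is the SD of that chain's own share. Lama5 takes 17.5% and 20.7% of the α transcripts in the bleo groups against under 5% in vehicle, and Lamb1 takes 65.8% of the β transcripts in Pear1-/- bleo against 48.1% to 52.1% elsewhere.

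Since Pdgfra itself fell with bleo, the genes were also counted against it in each library, as a description without a test. Dividing by Pdgfra shifts every gene by the same amount, in WT bleo against WT vehicle upwards by 1.74 (log2), the size of the fall of Pdgfra, so a reversed direction on this scale says only that a gene fell less than Pdgfra. Per 100 Pdgfra counts, Nid1 had 64.1 ± 7.91 with vehicle and 109 ± 3.51 with bleo in WT, and 74.9 ± 1.11 with vehicle and 116 ± 0.170 with bleo in Pear1-/-. On this scale Nid1 was higher with bleo in both genotypes, the reverse of its normalized counts. The other genes that fell less than Pdgfra in WT and lay higher on this scale without overlap were Nid2, Lamb1, Lama2, Lamb2, Lamc1 and Hspg2. With vehicle and with bleo in WT, Lama2 had 33.2 ± 3.05 and 43.2 ± 3.09, Lamb2 38.2 ± 6.28 and 47.4 ± 0.386, Lamc1 45.0 ± 3.45 and 64.9 ± 4.95, and Hspg2 14.7 ± 1.27 and 35.5 ± 2.92. Lama4 was lower with bleo on this scale too (70.3 ± 4.39 and 63.1 ± 0.932), and Lama3 overlapped. In Pear1-/-, Lamb1, Lamc1 and Nid1 lay higher with bleo and Lama2, Lama4 and Lamb2 lower. Nid2 had 4.65 ± 1.38 with vehicle and 10.3 ± 0.464 with bleo in WT, and 6.60 ± 0.870 with vehicle and 23.4 ± 1.92 with bleo in Pear1-/-. Lamb1 had 73.0 ± 4.27 with vehicle and 83.7 ± 5.07 with bleo in WT, and 77.2 ± 5.95 with vehicle and 92.6 ± 3.99 with bleo in Pear1-/-, so its bleo groups were close to touching. Lama5 (18.9 to 21.4 in WT bleo and 17.1 to 19.8 in Pear1-/- bleo) and Hspg2 (32.2 to 37.5 and 31.6 to 33.7) overlapped between the bleo groups, although their normalized counts did not. Against Pdgfra, Lama4 (63.1 ± 0.932 and 54.5 ± 1.76), Lamc1 (64.9 ± 4.95 and 45.5 ± 2.73), Lama2 (43.2 ± 3.09 and 26.7 ± 0.703), Lamb2 (47.4 ± 0.386 and 27.8 ± 0.700) and Lama3 (1.80 ± 0.757 and 0.572 ± 0.171) were lower in Pear1-/- bleo than in WT bleo. Pdgfra was higher by 0.80 on the log2 scale in Pear1-/- bleo than in WT bleo, and on its scale 74.7% of all genes lay lower and 5.61% higher there without overlap, the latter including Nid1, Nid2 and Lamb1.

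**Figure D4:**
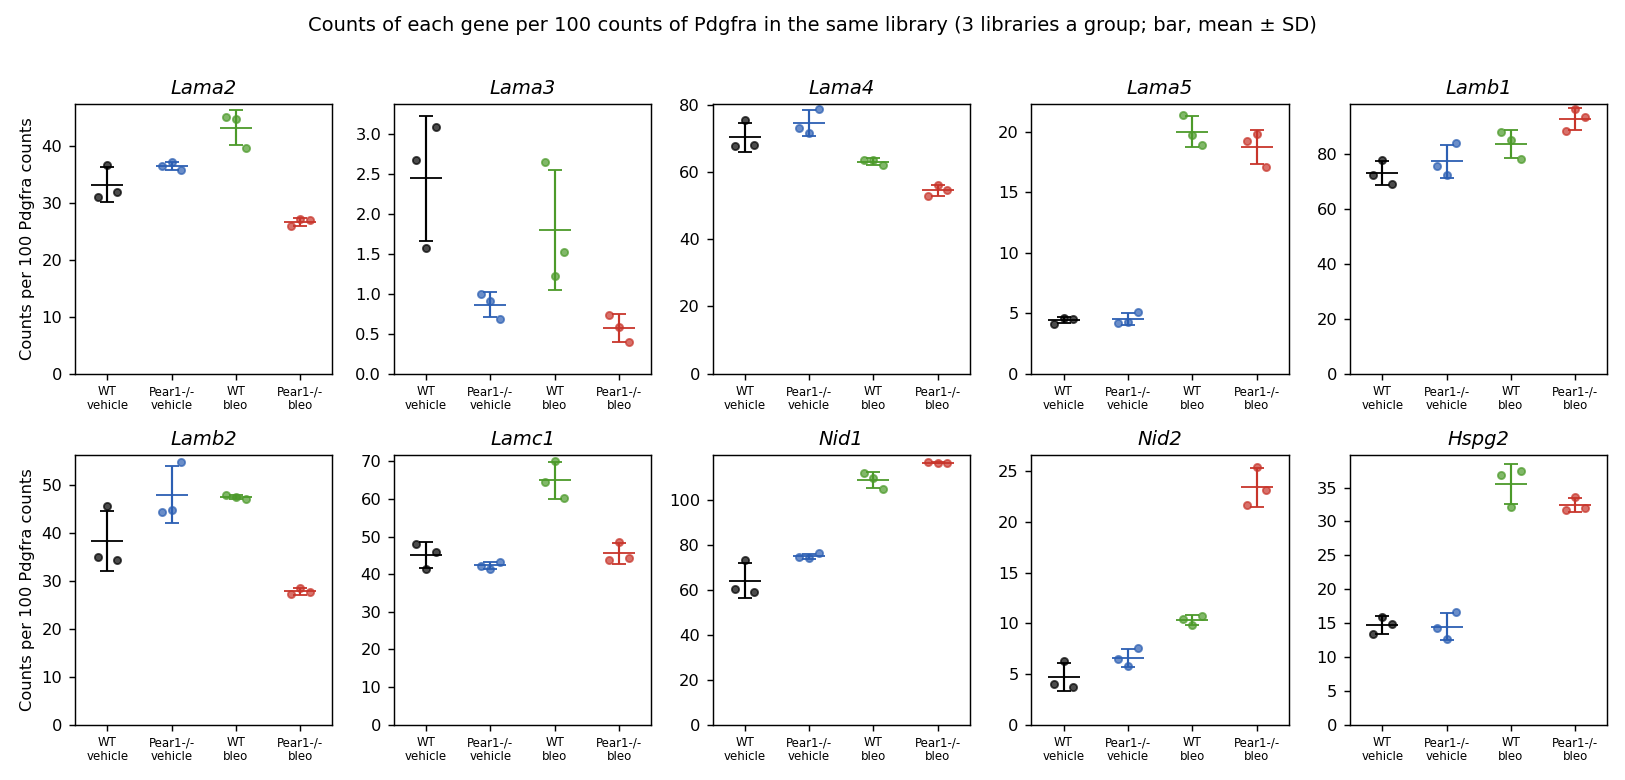
Counts of each gene per 100 counts of Pdgfra in the same library (vertical axes, linear and starting at 0), by group (horizontal axes); points are libraries and bars the mean ± SD of 3. Nid2 reaches 23.4 in Pear1-/- bleo against 10.3 in WT bleo, while Lama2, Lama3, Lama4, Lamb2 and Lamc1 lie lower in Pear1-/- bleo than in WT bleo.

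Of the remaining laminin chains, 3 were followed, Lama1, Lamb3 and Lamc3. In WT bleo 2 were lower than in WT vehicle and 0 higher, against 36.6% and 31.4% of all genes (none higher at an unadjusted p under 0.05, by DESeq2 or by limma). Lamc3, which encodes γ3, went from 1416 ± 62.3 normalized counts in WT vehicle to 282 ± 19.6 in WT bleo, and from 1380.0 ± 92.5 to 154 ± 22.5 in Pear1-/-, log2 fold changes of -2.31 (SE 0.095, adjusted p = 1.49e-11) and -3.16 (SE 0.10, adjusted p = 1.60e-12). It was lower in Pear1-/- bleo than in WT bleo (-0.89), opposite to Lamc1. Lamb3, which encodes β3, a partner of α3, was lower with bleo in WT (-0.53) and in Pear1-/- (-1.78), and lower in Pear1-/- bleo than in WT bleo (-1.31). Between the vehicle groups only Lama1, named here after its values were seen, was lower (-2.60) and 0 were higher, against 3.65% and 0.855% of all genes. Lama1 had 13.2 to 101 normalized counts in WT vehicle, lowest in replicate 2. With that replicate as the sole WT vehicle library its value was -0.38. Without it 3 chains were lower in WT bleo than in WT vehicle (38.7% of all genes).

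Among 23 other basement membrane genes, 19 were lower and 2 higher in WT bleo than in WT vehicle, against 36.6% and 31.4% of all genes, with a median log2 fold change of -1.12. Among those at a mean of at least 3 log2 CPM, a floor on level that holds for every gene picked by size from here on, the largest falls were those of Smoc1 (-2.88) and Smoc2 (-2.05), which encode SPARC-related calcium-binding proteins, and of Col4a6 (-2.37), a type IV collagen chain. The 2 that rose were Col4a2 (0.45) and Sparc (0.35), a collagen chaperone of the matrix. In Pear1-/- 11 were lower and 5 higher (33.4% and 28.9% of all genes), with Sparc (1.50), Col4a2 (1.37) and Pxdn (1.15) rising most. Pxdn encodes peroxidasin, which cross-links type IV collagen. Smoc1 (-3.08), Col4a6 (-3.07) and Col4a4 (-2.84) fell most. The other 2 of the 5 that rose, Col4a1 (0.80) and Fbln2 (0.25), were named after their values were seen.

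Between Pear1-/- bleo and WT bleo 10 of the 23 were higher and 7 lower, against 22.1% and 23.9% of all genes, with a median of 0.09. Fbln2 (1.70), Pxdn (1.50) and Sparc (1.10) were the furthest above WT bleo, and Col4a4 (-1.21), Col4a6 (-0.88) and Fbln1 (-0.63) the furthest below. Fibulins 1 and 2 both bind nidogen and laminin, and their genes thus moved in opposite directions. The 2 bleo effects differed in 17 of the 23, by 11 genes towards a higher value in Pear1-/- (Npnt, 1.59, Fbln2, 1.48, and Pxdn, 1.44, the furthest) and 6 towards a lower one (Col4a4, -1.13, Fbln1, -0.84, and Col4a6, -0.70), against 17.9% and 19.1% of all genes. The value of Npnt turned on WT vehicle, where it had 6607, 2790.4 and 6342 normalized counts, the lowest in replicate 2. It was 0.69 with replicate 2 as the sole WT vehicle library, below Fbln2 (1.71) and Pxdn (1.53), and 1.90 without replicate 2. Between the vehicle groups 3 were lower (3.65% of all genes), Npnt (-1.02), Frem1 (-0.83) and, named after its values were seen, Fras1 (-2.27). None was higher there in edgeR, DESeq2 or limma, with 4 higher at an unadjusted p under 0.05. Without WT vehicle replicate 2, 5 of the 23 were higher and 9 lower in Pear1-/- vehicle (22.7% and 23.4% of all genes), and 3 were higher in WT bleo than in WT vehicle (34% of all genes). With that replicate as the sole WT vehicle library the values between the vehicle groups were -0.10 for Npnt, -0.28 for Frem1 and -0.25 for Fras1. No gene of the whole table was called between the vehicle groups when any 1 vehicle library other than WT vehicle replicate 2 was left out, these 3 and Lama1 included.

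Of 9 receptor genes, 7 were lower and 1 higher in WT bleo (36.6% and 31.4% of all genes). The one that rose was Itga6, the α6 subunit of the main laminin-binding integrins, which is also carried by leukocytes and endothelium. It went from 104 ± 19.9 to 609 ± 38.5 normalized counts in WT (log2 fold change 2.56) and from 109.9 ± 4.50 to 173 ± 6.05 in Pear1-/- (0.65). It was lower in Pear1-/- bleo than in WT bleo (-1.83), the same direction as the leukocyte markers. Dag1, which encodes dystroglycan, fell in WT (-0.97) and less in Pear1-/- (-0.46, difference of the effects 0.51), and was higher in Pear1-/- bleo than in WT bleo (0.57). Itgb1, the shared β1 subunit, rose in Pear1-/- (0.78), its value in WT was 0.01 and not called, and the difference of the 2 effects was itself called (0.76). Itga1 fell in WT (-0.55, and -0.83 with WT vehicle replicate 2 as the sole WT vehicle library) and was higher in Pear1-/- bleo (0.70), and Itga3 fell in both genotypes (-0.81 and -0.72). Bcam, the Lutheran receptor of α5, fell in both genotypes (-0.44 in WT and -0.41 in Pear1-/-), as did Itgb4 (-1.53 and -1.83), which was named after its values were seen and was the second receptor lower in Pear1-/- bleo than in WT bleo (-0.73). Itga2 (1.76), also named after its values were seen, made, with Itgb1 (0.71), Itga1 and Dag1, the 4 receptors higher there, so that 4 of the 9 were higher and 2 lower against 22.1% and 23.9% of all genes. With 1 library left out, 4 receptors stayed higher there and 1 to 2 were lower. Between the vehicle groups 0 receptors were called in either direction by edgeR or limma, with 1 higher and 2 lower at an unadjusted p under 0.05 and 1 lower by DESeq2. Without WT vehicle replicate 2, 1 receptor was higher and 2 were lower there (22.7% and 23.4% of all genes).

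Over the 12 libraries the genes fell into patterns that follow the group levels, so the correlations below describe shared group means and rest on no independent points. On log2 CPM, r was 0.99 between Lama2 and Lamb2, 0.98 between Lama2 and Lama4 and 0.97 between Lama4 and Lamc1, which all fell in both genotypes. It was 0.95 between Lamb1 and Nid1, and 0.83 between Nid2 and Hspg2. Lama5 ran opposite to Lamb2 (-0.83) and Lama2 (-0.82). Among 5311 genes of at least moderate level, those whose libraries tracked Lama2 most closely were Plpp3 (r = 0.997), Spry1 (0.996), C7, Hsph1 and Tmem100 (0.995 each). For Lamc1 they were Lrp4 (0.993), Rasl12, Fam171a1, Ppp1r12b and Tns1 (0.991 each), and for Hspg2 they were Pef1 (0.957), Adamts15 (0.956), Dpysl3 (0.946), Tollip (0.945) and Cdc42ep4 (0.940).

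The 10 genes lie on 9 chromosomes (GRCm38, GENCODE M21). Lama2 spans chr10:26980036-27619758 on the minus strand and Lama4 spans chr10:38965515-39110188 on the plus strand. Lama3 is at chr18:12333819-12583013 on the plus strand and Lama5 at chr2:180176373-180225859 on the minus strand. Lamb1 is at chr12:31265234-31329644 on the plus strand, Lamb2 at chr9:108479736-108490530 on the plus strand and Lamc1 at chr1:153218922-153332786 on the minus strand. Nid1 is at chr13:13437551-13512269 on the plus strand, Nid2 at chr14:19751265-19811787 on the plus strand and Hspg2 at chr4:137468769-137570630 on the plus strand. Besides Nid2, exons of an antisense gene cover 3.86% of the exonic bases of Lama2, 1.83% of Lama3 and 2.06% of Nid1, and reads from either strand cannot be told apart there.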

How the data were processed

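Sorted Pdgfra+ lung cells were profiled as SMART-Seq v4 cDNA libraries on an Illumina sequencer. Per the study's methods and the labels, the authors aligned reads with HISAT2 to GRCm38 (mm10) and deposited whole-number counts per gene, 1 column per library. The submitters' processing notes also name FastQC. The program that counted the reads and its strand setting are not given in the sources used here. The deposited normalized signal is the same counts divided by 1 size factor per library by the authors. Groups and replicate numbers came from the sample titles. The 10 genes and the gene lists were chosen with earlier results of these data known. One item of the laminin list is not reported here.

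Counts were tested in edgeR 4.0.16 (R 4.3.3) by the quasi-likelihood test, two-sided, with TMM scaling and 1 mean per group over all 12 libraries. The default filter kept 17418 of 40760 genes, and p-values were adjusted by Benjamini-Hochberg over all of them, with 0.05 as the threshold. SE is the standard error of a log2 fold change. Scripts were tested on simulated counts. Count ratios were compared by exact permutation test. Alternatives were no filter, RLE and upper quartile scaling, DESeq2 1.42.0, limma 3.58.1 on log2 of the normalized values plus 1, the compared groups alone, a replicate block, leaving out each library, a pseudocount of 1 in the ratios and, added after seeing the data, WT vehicle replicate 2 as the only WT vehicle library. From the other laminin, basement membrane and receptor lists, up to 3 called genes per direction and comparison were named, those that changed most and reached a mean of 3 log2 CPM. For Lama2, Lamc1 and Hspg2 the 5 most correlated genes whose mean reached 5 log2 CPM were named. At the depth of these libraries 3 counts correspond to 0.287 to 0.448 CPM, a floor that covers counting error only. Same-numbered libraries of different groups gave correlations of their deviations from -0.29 to 0.18, with 2 of 18 pairs over 0.1, so the numbers were not taken to pair samples.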

Additional observations from a re-analysis of the deposited data

Results flagged for a closer look

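For 7 of the 10 genes the effect of bleo differed between the mice labelled Pear1-/- and WT by edgeR's interaction term, adjusted over all genes tested. All 7 went towards a higher value in Pear1-/-, as did 17.9% of all genes, while 19.1% of all genes went the other way. On the log2 scale the effect in Pear1-/- minus that in WT was 0.64 for Lama4, 0.81 for Lama5, 1.0 for Lamb1 and 0.52 for Lamc1. It was 0.80 for Nid1, 1.60 for Nid2 and 0.83 for Hspg2. For Pdgfra, the gene of the sort, it was 0.94. The part of the make-up of the sorted cells in these values was not tested. For Nid2 and Hspg2 the effects had opposite signs, down in WT and up in Pear1-/-, and for Lama5 both were up. For Lama4, Lamb1, Lamc1 and Nid1 both were down, with the larger fall in WT. The fall of Nid1 in Pear1-/- (-0.16) was not called with no filter, with the replicate block or without any 1 of 5 libraries.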

How the results depend on the processing

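Of 730 values of single genes recomputed under the alternatives, 692 kept their direction and side of the threshold, 17 lost a call, 10 gained one and 11 changed sign, none of which was a called value. Of 438 counts over the other lists, 405 stayed within 1.5 times and 33 moved. Between the bleo groups, 1 of the 10 genes (Lama3, -0.84 both ways) was lower with no filter and with only the compared groups. Between the vehicle groups, 2 were higher with no filter and 0 to 3 with 1 library left out, and 0 were lower with only the compared groups or with WT vehicle replicate 2 alone, and 0 to 2 with 1 library left out. The interaction called 0 to 1 lower with 1 library left out, the 1 being Lamb2 without WT vehicle replicate 2. Changes of sign were in values near 0. Between the vehicle groups Lama2 became -0.0036 with RLE, -0.076 with upper quartile scaling, -0.0034 with DESeq2, -2.59e-04 with only the compared groups and -0.021 with WT vehicle replicate 2 alone, and ranged from -0.017 to 0.024 with 1 library left out. There Lama4 became 0.046 and Lamb1 0.045 with no filter, and Lamc1 0.024 with WT vehicle replicate 2 alone. The log2 Lama2 to Lama4 ratio of Pear1-/- bleo against Pear1-/- vehicle ranged from -0.058 to 0.041 with 1 library left out. The cause of these moves was not tested. With WT vehicle replicate 2 alone that library is assumed to vary like those of the other groups.

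With the replicate number as a block, the fall of Nid1 in Pear1-/- kept its size (-0.16) at an adjusted p of 0.0527, leaving 6 of 7 genes lower there. No other call among the 10 genes changed with the block, and 3 of 12 libraries correlated best with their own number. With no filter that fall had an adjusted p of 0.468.

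Over all genes the vehicle comparison was the least stable, with 149 higher and 635 lower in edgeR, 2308 and 3330 with no filter, 137 and 1165 with upper quartile scaling, 446 and 1038 with DESeq2, 505 and 594 with limma, 3957 and 4072 without WT vehicle replicate 2, 0 and 1 with that replicate alone, and 0 and 0 with only the compared groups or without any 1 of the other vehicle libraries. In WT, genes lower with bleo numbered 6375, and 13092 with no filter. Upper quartile scaling moved the median of all genes by -0.15 in that comparison and gave 4395 higher and 7375 lower against 5463 and 6375. Depth limited Lama3 most, with 10 to 127 counts in a library. The planned levels without length scaling were not run separately, since length cancels when 1 gene is compared between groups.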
